A study of Mus musculus with 8 samples.

Results

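The 10 genes described here act at the inner end of WNT/b-catenin signaling, as target genes of the pathway or as regulators of it inside or at the surface of the receiving cell. They were taken by name, by a rule that uses no measured value but was written with earlier results of these data known, as 10 of the 19938 genes that the array measured under a single symbol. *Axin2*, *Sp5* and *Nkd1* are feedback targets, *Ccnd1*, *Myc* and *Mycn* are targets that act on growth and division, and *Cdk14*, *Ptpru*, *Dact1* and *Kremen1* are regulators. RNA was measured on 8 arrays in 4 groups of 2. The GFP-expressing mesodiencephalic dopaminergic (mdDA) neurons of the ventral midbrain (VM) were sorted at E14.5 and at E13.5 from *Pitx3GFP/+* embryos of a mixed C57BL/6 x 129/Ola background, in which 1 *Pitx3* allele carries GFP, so that these cells have a single intact *Pitx3* allele. The mdDA domain and a lateral domain of the midbrain were cut by laser from sections of E12.5 *BAT-gal* embryos of a mixed B6D2F1 background, with the tissue of 5 embryos pooled per domain. Both domains carry the *BAT-gal* transgene, in which LEF1/TCF binding sites before a minimal promoter drive b-galactosidase (b-GAL). The mdDA domain was outlined by PITX3 and b-GAL staining, and the lateral domain lacked both. The study set out to find genes through which the pathway acts in these cells and genes that tune it.

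The 2 arrays of a group are technical replicates, for each dissected domain of its pool. How many embryos went into each sort is not given in the sources used here. Every p-value given below therefore measures the spread between arrays and not the spread between embryos. Sorted neurons and dissected domains differed in stage, genotype, strain and way of isolation, and these cannot be told apart. Values are log2 levels after robust multi-array averaging (RMA), a difference of 1 is a doubling, and a gene was called when its adjusted p from limma (Benjamini-Hochberg over 35556 probe sets) was below 0.1. Array medians lay between 4.389 and 4.394 on the sorted arrays and between 4.572 and 4.604 on the dissected arrays. The 2 arrays of a group correlated across probe sets with r between 0.966 and 0.983. The 6 mdDA neuron markers (*Th*, *Ddc*, *Slc18a2*, *Nr4a2*, *Pitx3*, *Slc6a3*) had a summed linear level of 4518 to 4522 in E14.5 neurons, 4789 to 4807 in E13.5 neurons and 2421 to 2428 in the mdDA domain, against 290 to 314 in the lateral domain. Erythroid genes summed to 73 to 83 on the sorted arrays, against 3154 to 3184 in the mdDA domain and 2754 to 2865 in the lateral domain. The 6 microglial genes made no call in any comparison with the values as deposited (*C1qa* was called higher in sorted neurons than in either domain with arrays centred on their medians and with quantile normalization repeated), and 3 or 4 of them were below the array median on both arrays of each group.

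A canonical WNT signal stops the destruction complex of AXIN, APC, GSK3 and CK1 from marking b-catenin for degradation, and b-catenin then enters the nucleus and activates genes together with LEF1/TCF factors. Several of the genes it activates close a feedback loop: AXIN2 rebuilds the destruction complex, NKD1 binds Dishevelled, and SP5 is a zinc finger factor that dampens the transcription of other targets. In the VM the pathway is known for its part in specifying and differentiating mdDA progenitors.

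LEF1/TCF factors bind a short core that was searched for here, on both strands, in its spellings CTTTGAA and also CTTTGAT and also CTTTGTA and also CTTTGTT, in the windows of 250 bases before to 50 bases after the start of each gene (RefSeq, mouse build GRCm38.p6). A window was at hand for 7 of the 10 genes, all but *Ccnd1*, *Myc* and *Kremen1*. For *Axin2*, *Nkd1* and *Ptpru* the start used lay inside the gene. The *Axin2* window began at base 108920099, where the annotated gene begins at 108917828. The *Nkd1* window began at 88527383, where the gene begins at 88521342. The *Ptpru* gene, on strand -, begins at 131838306, and the 250 bases taken as before its start reached down to 131838279. A match was found in 3 of these 7, against 16.9% of all 32851 windows (5544 windows). The 250 bases before the start of these 3 genes are shown because they hold the core letters of the LEF1/TCF site, 1 gene from each role: a feedback target, a growth target and a regulator. Each runs 5′ to 3′ on the gene's own strand, with the matches in capitals.
Sp5, chr2:70474673-70474922, strand +: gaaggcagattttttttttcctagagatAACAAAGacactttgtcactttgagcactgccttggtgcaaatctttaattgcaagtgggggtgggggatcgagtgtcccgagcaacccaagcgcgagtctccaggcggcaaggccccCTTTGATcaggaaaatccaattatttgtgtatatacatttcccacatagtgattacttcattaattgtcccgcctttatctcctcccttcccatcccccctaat
Mycn, chr12:12941837-12942086, strand -: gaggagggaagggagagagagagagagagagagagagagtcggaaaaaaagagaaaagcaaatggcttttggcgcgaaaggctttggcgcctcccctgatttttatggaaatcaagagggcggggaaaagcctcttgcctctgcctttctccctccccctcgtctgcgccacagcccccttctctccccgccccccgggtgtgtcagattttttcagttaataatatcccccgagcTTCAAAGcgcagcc
Cdk14, chr5:5380252-5380501, strand -: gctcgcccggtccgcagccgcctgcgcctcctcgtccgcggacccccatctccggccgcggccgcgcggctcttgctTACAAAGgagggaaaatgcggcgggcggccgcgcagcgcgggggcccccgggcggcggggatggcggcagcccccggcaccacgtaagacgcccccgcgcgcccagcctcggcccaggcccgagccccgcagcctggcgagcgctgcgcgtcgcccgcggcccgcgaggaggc

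*Sp5* held 2 matches, whose first bases lay at -222 and -104, counted from the start of the gene. *Mycn* held 1 match, at -14, and *Cdk14* held 1, at -173. The window of *Cdk14* had a GC content of 81.3%, that of *Mycn* 56.7% and that of *Sp5* 45.0%. The windows of *Axin2*, *Nkd1*, *Dact1* and *Ptpru* did not contain any of the 4 spellings. For *Axin2*, *Nkd1* and *Ptpru* this concerns a start inside the gene. For *Axin2* and *Nkd1* the bases before the gene's first base were not searched. A match is a run of letters and no measurement of binding, and the levels of these 3 genes followed different patterns, as described below.

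The first comparison asked which of the 10 genes differed between the mdDA domain, which the study calls WNT/b-catenin-responding, and the lateral domain at E12.5. The study found b-GAL in only a part of the PITX3-positive cells at E12.5, and describes b-GAL as a stable protein that might outlast the signal. In the mdDA domain *Cdk14* was 4.28-fold higher, *Ptpru* stood 3.72-fold over the lateral arrays' median, and *Ccnd1* was 5.46-fold lower. The fold of *Ptpru* is given against the median of the lateral arrays, because its own level there lay below that median. The other 7 genes did not pass the test, among them all 3 feedback targets. Of the 10 genes 2 were called higher and 1 lower, where 1.52% of all probe sets were called higher, 1.1% lower and 2.62% in either direction. The median difference of the 10 genes was 0.18, against -0.01 over all probe sets. The 2 arrays of the mdDA domain lay wholly above or wholly below the 2 of the lateral domain for 7 of the 10 genes, which is also the case for 43.8% of all probe sets. In bulk RNA, fewer cells of a type and less RNA per cell cannot be told apart.

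**Figure D1:**
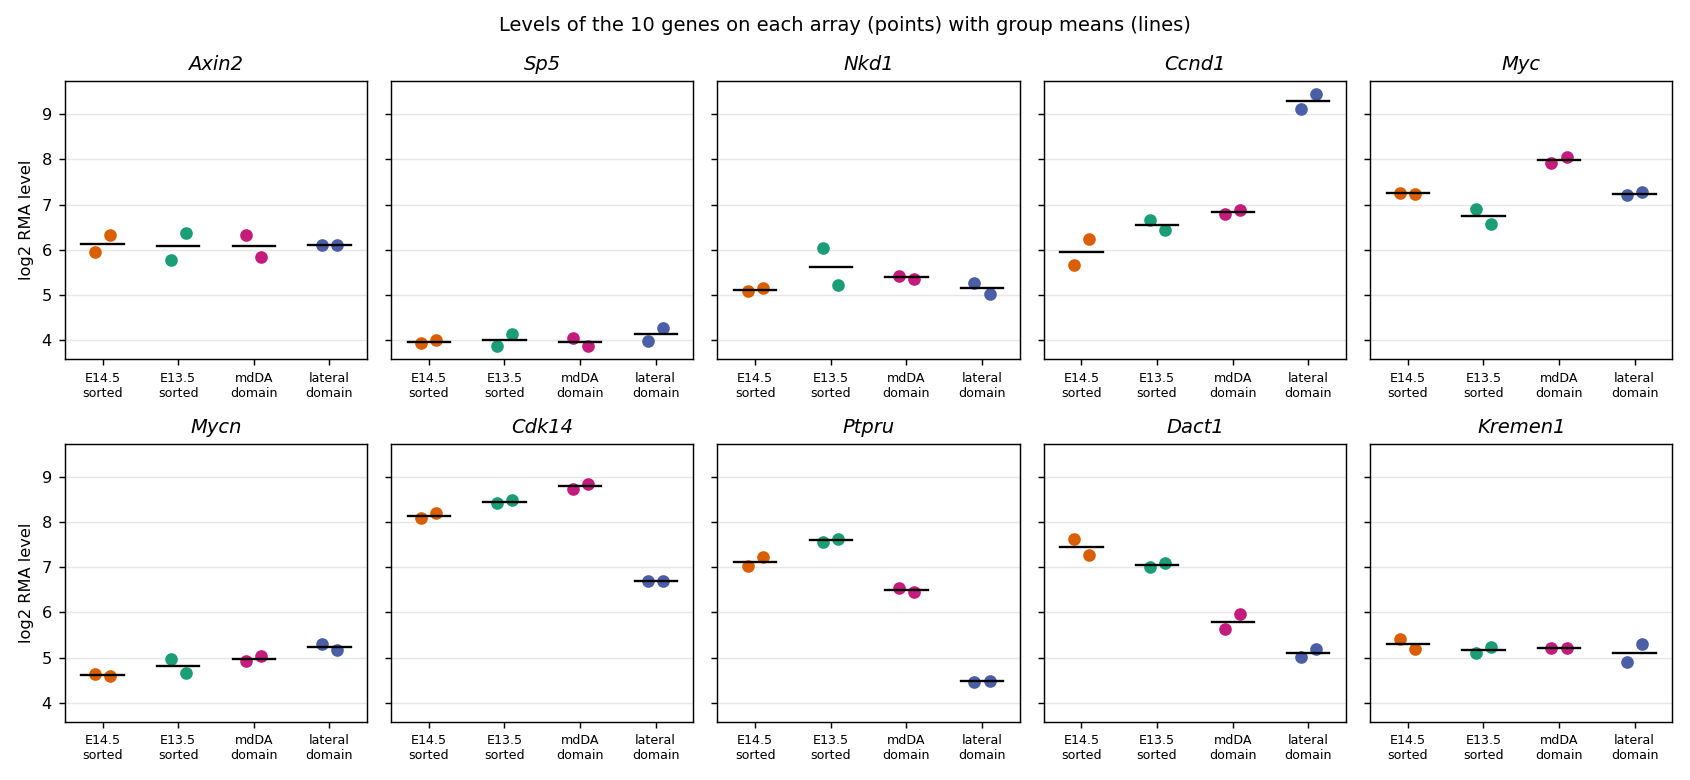
Log2 RMA level of each of the 10 genes (vertical axis) on each array (points) in E14.5 sorted neurons, E13.5 sorted neurons, the mdDA domain and the lateral domain, with lines at the group means of 2 arrays. *Ccnd1* stands below 7 on the 6 arrays of the other groups, against 9.11 and 9.46 in the lateral domain, *Cdk14* and *Ptpru* are lowest in the lateral domain, and *Axin2*, *Sp5* and *Kremen1* stay within 0.60, 0.41 and 0.51 over all arrays.

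*Axin2*, the most widely used readout of the pathway, had levels of 6.32 and 5.84 in the mdDA domain, against 6.10 and 6.11 in the lateral domain. The 2 mdDA arrays lay on either side of both lateral arrays. The difference was -0.03 with a 95% interval of -0.54 to 0.48 (SE 0.19, adjusted p = 0.975 from limma), so that an excess of more than 0.48 in the mdDA domain lies outside the interval. *Sp5* had 4.05 and 3.87 in the mdDA domain, against 3.98 and 4.27 in the lateral domain. It lay below the array's median on all 8 arrays, so that its level may not be above background. Its difference was -0.17 (95% interval -0.67 to 0.33, adjusted p = 0.792). *Nkd1* had 5.43 and 5.36 in the mdDA domain, against 5.27 and 5.02 in the lateral domain, so that it differed by 0.25 (95% interval -0.17 to 0.66, adjusted p = 0.596). Its groups did not overlap, with a gap of 0.09.

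*Ccnd1* encodes cyclin D1, which drives cells from G1 into DNA synthesis together with CDK4 and CDK6. It stood at 6.78 and 6.89 in the mdDA domain, against 9.11 and 9.46 in the lateral domain. The groups were 2.22 apart at their nearest arrays. The difference was -2.45 ± 0.16 (SE, 95% interval -2.87 to -2.02, adjusted p = 0.0333 from limma), and by absolute difference *Ccnd1* ranked 81 among the 35556 probe sets. Genes of dividing cells moved the same way: of 11 measured, the mdDA domain had 7 called lower and none higher (6 lower with quantile normalization repeated). Their summed linear level was 611 to 643, against 1668 to 1730 in the lateral domain. Of 8 neural progenitor genes 3 were lower and none was higher, with sums of 2338 to 2408 in the mdDA domain and 3847 to 3998 in the lateral domain. The 6 GABAergic neuron genes summed to 156 to 182 in the mdDA domain, against 1546 to 1630 in the lateral domain, and all 6 were called lower, as were 4 of 4 alar plate genes (68 to 81 in the mdDA domain, against 886 to 946 in the lateral domain). The part of these cell types in the *Ccnd1* difference was not tested.

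**Figure D2:**
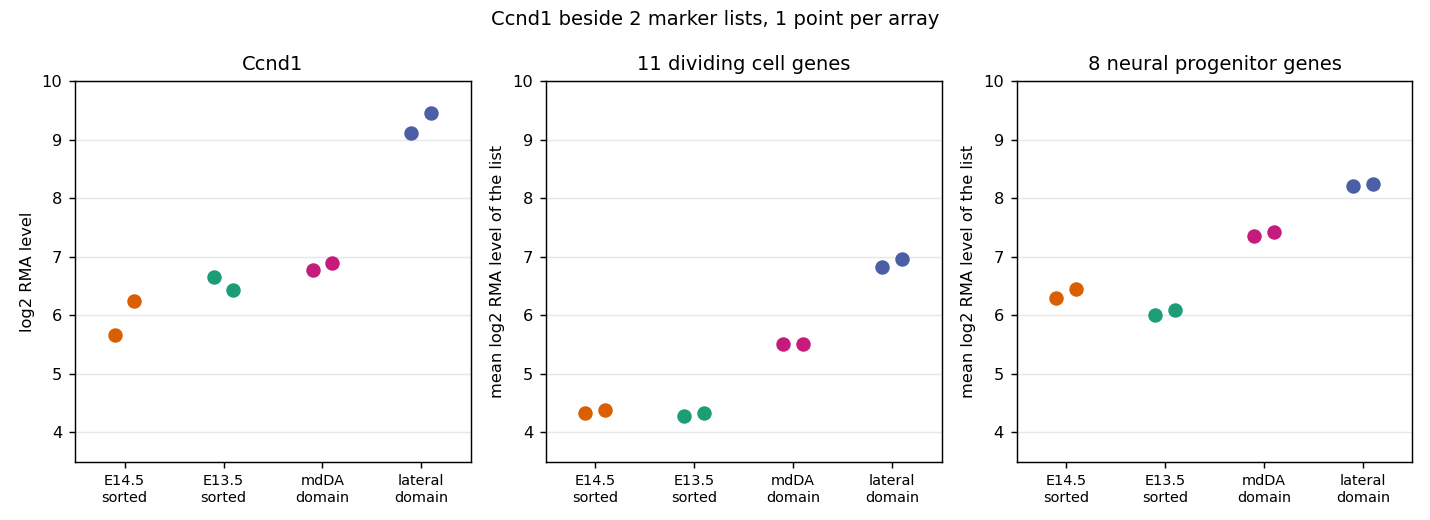
Log2 RMA level of *Ccnd1* (left), mean log2 level of 11 dividing cell genes (middle) and of 8 neural progenitor genes (right) on each array, 1 point per array, by group. The dividing cell mean was 4.28 to 4.39 in the sorted neurons and 5.50 in the mdDA domain, against 6.83 to 6.96 in the lateral domain, and *Ccnd1* has the same order of the 3 tissues.

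*Myc* and *Mycn* encode bHLH factors that pair with MAX and drive growth. *Myc* had 7.92 and 8.06 in the mdDA domain, against 7.21 and 7.28 in the lateral domain, with no overlap. Its difference of 0.75 ± 0.15 (SE, 95% interval 0.35 to 1.14) missed the threshold at adjusted p = 0.14 from limma. The same difference passed without the replicate block (adjusted p = 0.0798), with all 8 arrays in 1 fit (0.0678), with trend and robust priors (0.0631) and among probe sets with a single symbol (0.00697). *Mycn* had 4.93 and 5.02 in the mdDA domain, against 5.31 and 5.16 in the lateral domain, which gives a difference of -0.26 (95% interval -0.69 to 0.17, adjusted p = 0.591). The 2 paralogs had opposite signs, and neither was called.

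*Cdk14* encodes a cyclin Y-dependent kinase that phosphorylates the WNT co-receptor LRP6 in mitosis. It had 8.74 and 8.83 in the mdDA domain, against 6.69 and 6.69 in the lateral domain. Its difference of 2.10 ± 0.15 (SE, 95% interval 1.70 to 2.50, adjusted p = 0.0365 from limma) ranked 121 by size. *Ptpru* encodes a receptor-type tyrosine phosphatase family member that binds b-catenin. It had 6.53 and 6.46 in the mdDA domain, against 4.47 and 4.49 in the lateral domain, where both arrays were below their median. Its difference of 2.02 ± 0.15 (SE, 95% interval 1.62 to 2.42, adjusted p = 0.0385 from limma) is as measured, a ratio of 4.06, and its size depends on a lateral level that may not be above background, for which the values used here give no detection call. The gaps between the groups, 2.05 for *Cdk14* and 1.98 for *Ptpru*, were larger than the distances between 2 arrays of a domain, 0.09 or less. The 6 mdDA neuron genes moved with them, with 5 called higher and none lower, and so did the 4 measured floor plate genes, all called higher (1520 to 1656 in the mdDA domain, against 142 to 154 in the lateral domain). Their part in both differences was not tested.

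*Dact1*, which encodes a Dishevelled-binding protein, had 5.63 and 5.95 in the mdDA domain, against 5.01 and 5.19 in the lateral domain. The groups were 0.44 apart, and the difference of 0.69 ± 0.15 (SE, 95% interval 0.29 to 1.10) did not pass (adjusted p = 0.164 from limma, and 0.0116 among probe sets with a single symbol). *Kremen1* encodes a receptor that, with DKK proteins, removes LRP6 from the cell surface. It had 5.21 and 5.21 in the mdDA domain, inside the 4.91 and 5.29 of the lateral domain, and its difference of 0.11 had a 95% interval of -0.36 to 0.58 (adjusted p = 0.867).

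**Figure D3:**
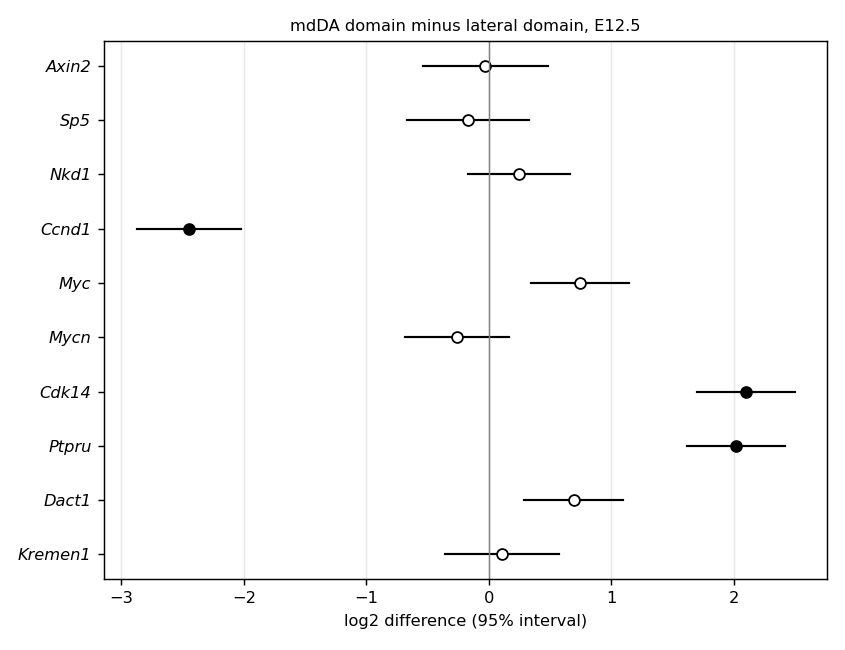
Log2 difference, mdDA domain minus lateral domain, of each gene at E12.5 (horizontal axis) with its 95% interval from limma (lines, 2 arrays per domain), with called genes as filled points. *Cdk14* (2.10) and *Ptpru* (2.02) lie right of 0, *Ccnd1* (-2.45) left of it, and the intervals of *Axin2*, *Sp5*, *Nkd1*, *Mycn* and *Kremen1* include 0. The intervals are not adjusted, and those of *Myc* and *Dact1* leave out 0 without a call.

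The second comparison set the sorted neurons, 2 arrays at E14.5 and 2 at E13.5, beside the E12.5 mdDA domain. *Dact1* and *Ptpru* were 2.73-fold and 1.81-fold higher in the sorted neurons, and *Myc* and *Cdk14* were 1.99-fold and 1.41-fold lower. These 4 of 10 genes, 2 in each direction, stood against 8.53% of all probe sets called higher, 9.84% called lower and 18.4% in either direction. The median difference of the 10 genes was -0.00, against -0.08 over all probe sets. The groups did not overlap for 5 of the 10 genes, as for 37.3% of all probe sets. When each array was centred on its own median, the median of all probe sets in this comparison moved by 0.20, to 0.12.

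*Dact1* had 7.63 and 7.26 in E14.5 neurons and 7.001 and 7.086 in E13.5 neurons, against 5.63 and 5.95 in the mdDA domain. All 4 sorted arrays were above both tissue arrays by at least 1.05. The difference was 1.45 ± 0.16 (SE, 95% interval 1.08 to 1.83, adjusted p = 0.00585 from limma). *Ptpru* had 7.02 and 7.22 at E14.5 and 7.57 and 7.62 at E13.5, against 6.53 and 6.46 in the mdDA domain, a difference of 0.86 ± 0.11 (SE, adjusted p = 0.00816). These were the only 2 of the 10 genes called higher in sorted neurons against the mdDA domain. Over the same arrays 4 of the 6 mdDA neuron genes were higher and none was lower, 7 of 8 progenitor genes were lower (1468 to 1747 at E14.5 and 1004 to 1031 at E13.5), and the 4 erythroid genes were lower. Of 10 endothelial and mural genes 7 were lower (166 to 195 at E14.5 and 153 to 155 at E13.5, against 289 to 308 in the mdDA domain). Only 4 of them were lower with arrays centred on their medians or with quantile normalization repeated, where *Pecam1*, *Flt1* and *Tek* lost their calls. The progenitor gene *Fabp7* lost its call with arrays centred on their medians. Of 6 GABAergic genes 4 were higher (527 to 537 and 532 to 640, against 156 to 182). Of 4 measured floor plate genes 1 was higher (*Foxa1*, 0.70, lost with quantile normalization repeated) and 2 were lower (*Corin*, -1.97, and *Slit2*, -1.41). Of 4 alar plate genes 2 were higher and none was lower. Of 6 postmitotic neuron genes 3 were higher and none was lower, as against the lateral domain. Between the mdDA domain and the lateral domain 1 of these 6 was higher and none was lower. The part of these genes' cells in the differences was not tested.

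*Myc* had 7.25 and 7.24 at E14.5 and 6.91 and 6.57 at E13.5, against 7.92 and 8.06 in the mdDA domain. Each sorted array was at least 0.67 lower. The difference was -0.99 ± 0.13 (SE, 95% interval -1.31 to -0.69, adjusted p = 0.009 from limma). *Cdk14* had 8.09 and 8.20 at E14.5 and 8.43 and 8.48 at E13.5, against 8.74 and 8.83 in the mdDA domain, and the difference of -0.49 ± 0.10 (SE) was called (adjusted p = 0.0295). This call was lost with arrays centred on their medians (-0.29, adjusted p = 0.112), without mdDA domain replicate 1 (adjusted p = 0.116) or replicate 2 (0.139), and with a minimum of 1.5-fold.

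*Ccnd1* had 5.67 and 6.25 at E14.5 and 6.65 and 6.44 at E13.5, against 6.78 and 6.89 in the mdDA domain. The groups did not overlap, but the gap was 0.13. The difference of -0.58 ± 0.20 (SE, 95% interval -1.06 to -0.12) was not called (adjusted p = 0.111 from limma). It passed without E14.5 neurons replicate 2 (-0.73, adjusted p = 0.0449), with quantile normalization repeated (adjusted p = 0.0747), with a filter on dim probe sets (0.0876) and among probe sets with a single symbol (0.0640). Dividing cell genes were at 254 to 276 at E14.5 and 232 to 250 at E13.5, with 8 of 11 called lower against the mdDA domain and 5 of 11 below the array median on both arrays of each stage. *Mycn* differed by -0.26 (95% interval -0.57 to 0.05, adjusted p = 0.244).

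The feedback targets and *Kremen1* stayed close to 0. The difference was 0.03 for *Axin2* (95% interval -0.51 to 0.57), 0.02 for *Sp5* (-0.32 to 0.36), -0.02 for *Nkd1* (-0.56 to 0.52) and 0.02 for *Kremen1* (-0.33 to 0.37). Their adjusted p lay between 0.945 and 0.960 in limma. *Axin2* had 5.95 and 6.32 at E14.5 and 5.78 and 6.38 at E13.5, so that its sorted arrays covered the range of the dissected tissues. *Nkd1* had 5.08 and 5.15 at E14.5, and at E13.5 its arrays read 6.03 and 5.22, which is the widest distance between 2 arrays of a group among the 10 genes.

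**Figure D4:**
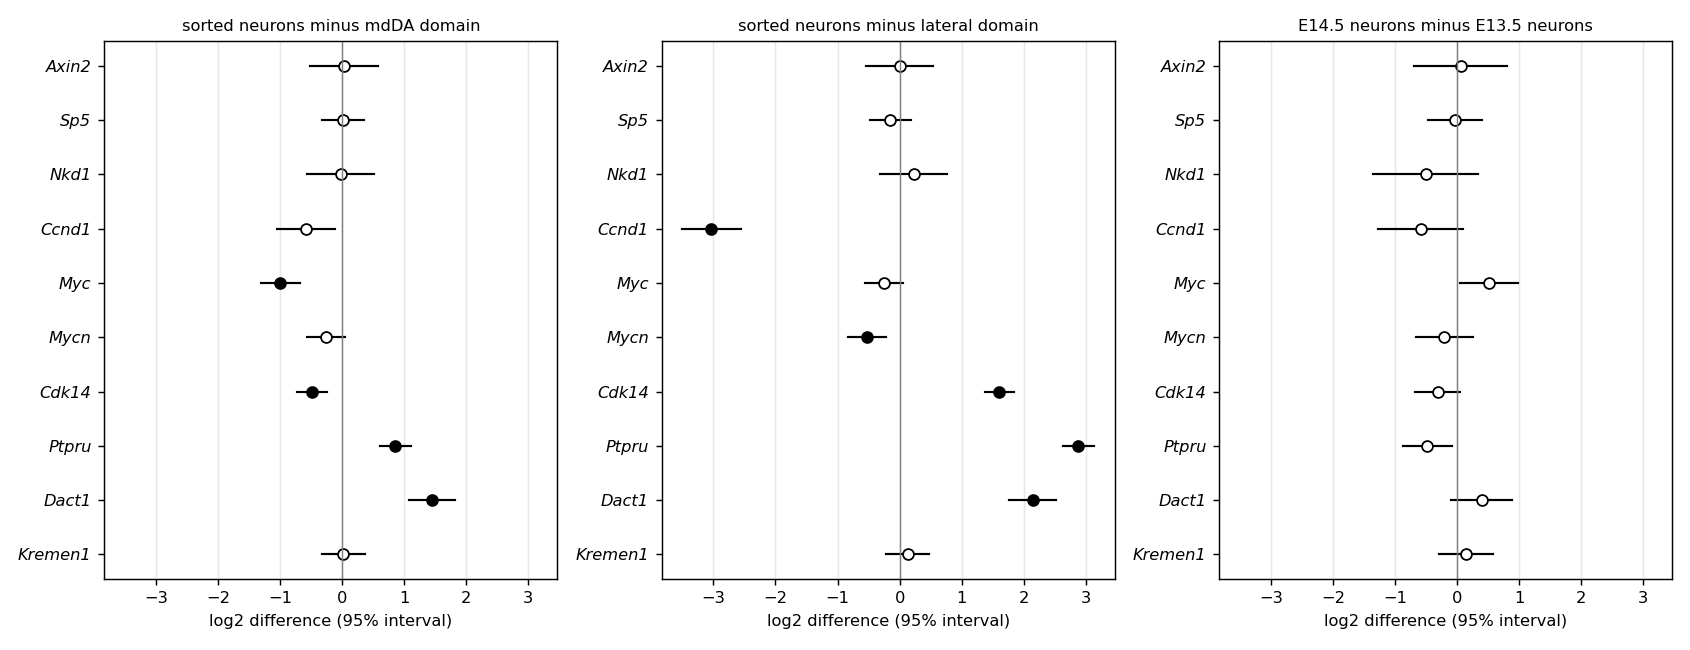
Log2 differences of the 10 genes with 95% intervals from limma (lines) for sorted neurons minus the mdDA domain (left, 4 and 2 arrays), sorted neurons minus the lateral domain (middle, 4 and 2 arrays) and E14.5 minus E13.5 neurons (right, 2 arrays each), with called genes as filled points. *Dact1* and *Ptpru* lie right of 0 in the left and middle panels, *Ccnd1* reaches -3.03 in the middle panel, and no point is filled in the right panel.

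Set beside the lateral domain, the sorted neurons had *Ptpru* 6.76-fold over the lateral arrays' median (7.37-fold as measured). In all they had higher *Ptpru*, *Dact1* (4.42-fold) and *Cdk14* (3.05-fold) and lower *Ccnd1* (8.18-fold) and *Mycn* (1.43-fold). These were 5 of the 10 genes, against 25.9% of all probe sets called in either direction, and 42.3% of all probe sets had groups that did not overlap, as had 5 of the 10 genes. The median difference was 0.06 for the 10 genes and -0.09 over all probe sets, and centring on array medians moved the median of all probe sets by 0.21, to 0.12. This comparison shares its sorted arrays with the one before and its lateral arrays with the first, so that the 3 are not independent. *Ptpru* differed by 2.88 ± 0.11 (SE, adjusted p = 7.02e-05 from limma), and *Dact1* by 2.15 ± 0.16 (adjusted p = 5.09e-04). *Cdk14* differed by 1.61 ± 0.10 (adjusted p = 3.05e-04), and its lowest sorted array was 1.39 above the highest lateral one. *Ccnd1* differed by -3.03 ± 0.20 (SE, adjusted p = 3.43e-04), beside 11 of 11 dividing cell genes and 8 of 8 progenitor genes called lower, whose part in it was not tested. In the same comparison 6 of 6 mdDA neuron genes and 3 of 4 floor plate genes were higher. The 4 of 4 alar plate and 4 of 4 erythroid genes were lower. Of 6 GABAergic genes 5 were lower and 1, *Slc32a1*, was higher (1.19, adjusted p = 0.00184 from limma). With arrays centred on their medians 4 were lower, as *Gad2* lost its call. The part of these marker genes' cells in the differences of *Ptpru*, *Dact1* and *Cdk14* was not tested.

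*Mycn* had 4.64 and 4.59 at E14.5 and 4.98 and 4.66 at E13.5, against 5.31 and 5.16 in the lateral domain, with a gap of 0.19. Its difference of -0.52 ± 0.13 (SE, adjusted p = 0.0352 from limma) was no longer called with arrays centred on their medians (-0.31, adjusted p = 0.157), without lateral domain replicate 1 (adjusted p = 0.200) or replicate 2 (0.113), and with a minimum of 1.5-fold. *Myc* differed by -0.25 (95% interval -0.56 to 0.06, adjusted p = 0.241), which passed with quantile normalization repeated (-0.40, adjusted p = 0.0706). *Axin2* differed by 0.00 (95% interval -0.54 to 0.54, adjusted p = 0.998). *Sp5* differed by -0.15, *Kremen1* by 0.13 and *Nkd1* by 0.23, and none of them was called, although *Nkd1* passed without E13.5 neurons replicate 2 (0.43, adjusted p = 0.0908).

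Between E14.5 and E13.5 no probe set was called by limma (0.0% of 35556, with 2156 at an unadjusted p below 0.05), and 20 were called with all 8 arrays in 1 fit, none of them among the 10 genes. The arrays of the 2 stages did not overlap for 7 of the 10 genes, as for 36.0% of all probe sets. The differences ran from -0.59 for *Ccnd1* to 0.51 for *Myc*, with a median of -0.12, against 0.00 over all probe sets. *Myc* (0.51), *Dact1* (0.40), *Kremen1* (0.14) and *Axin2* (0.06) were positive. *Ccnd1* (-0.59), *Nkd1* (-0.51), *Ptpru* (-0.48), *Cdk14* (-0.32), *Mycn* (-0.21) and *Sp5* (-0.03) were negative. Adjusted p lay between 0.77 and 0.985 in limma for all 10. The 95% intervals before adjustment left out 0 for *Ptpru* (-0.87 to -0.09) and *Myc* (0.04 to 0.98).

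By role, none of the 3 feedback targets was called in any of the 4 comparisons. Those comparisons, in the order above, called 2.62%, 18.4%, 25.9% and 0.0% of all probe sets. *Sp5* may not be above background, and whether the roles differ was not tested. Over all 8 arrays *Ccnd1* spanned 3.79, *Ptpru* 3.16, *Dact1* 2.62, *Cdk14* 2.15, *Myc* 1.49 and *Nkd1* 1.01, the last through 1 array. Between pairs of the 10 genes, the correlation over the 8 arrays was 0.87 for *Dact1* with *Ptpru*, 0.85 for *Cdk14* with *Ptpru*, 0.86 for *Ccnd1* with *Mycn*, and -0.93 for *Ccnd1* with *Ptpru*. It was 0.04 for *Ccnd1* with *Myc* and 0.00 for *Axin2* with *Ccnd1*. The 8 arrays fall into 4 groups, so that these values describe mainly the group means.

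Relatives of the 10 genes did not simply follow them. Of 16 relatives measured, the mdDA domain had 1 called higher than the lateral domain and none lower. In sorted neurons 1 was higher and 3 were lower both against the mdDA domain and against the lateral domain. Of all probe sets 2.62%, 18.4% and 25.9% were called in these 3 comparisons. *Ccnd2*, which encodes cyclin D2, had 9.22 and 9.31 in the mdDA domain, against 9.21 and 9.26 in the lateral domain, while *Ccnd1* differed by -2.45 on the same arrays. In sorted neurons *Ccnd2* had 6.05 and 7.14 at E14.5 and 6.47 and 6.36 at E13.5, a difference of -2.76 ± 0.28 against the mdDA domain (SE, adjusted p = 0.005 from limma) where *Ccnd1* was not called. *Ccnd3* was called lower in sorted neurons against the lateral domain (-0.68 ± 0.10, adjusted p = 0.00675). Whether the paralogs differ from each other in any of these comparisons was not tested.

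*Ptprk*, which encodes a receptor phosphatase of the MAM-domain family of *Ptpru*, was also higher in the mdDA domain, with levels of 7.60 and 7.39, against 5.73 and 5.68 laterally (1.798 ± 0.151, SE, adjusted p = 0.0447 from limma). After sorting it had 4.76 and 5.75 at E14.5 and 5.04 and 5.41 at E13.5, and was lower than in the mdDA domain (-2.26 ± 0.28, SE, adjusted p = 0.00782), where *Ptpru* was higher. *Ptprm*, another phosphatase gene of this family, was lower in sorted neurons than in the mdDA domain (-1.03 ± 0.10, adjusted p = 0.00492 from limma). It was also lower than in the lateral domain (-0.33 ± 0.10, adjusted p = 0.072), a call that was lost under both other scalings. *Sp9*, a zinc finger gene related to *Sp5*, was higher in sorted neurons by 0.34 against the mdDA domain (adjusted p = 0.0901 from limma). Against the lateral domain it was higher by 0.37 (adjusted p = 0.0559). Its means in the mdDA domain (4.570) and the lateral domain (4.544) lay just below the medians of those arrays, so that its level there may not be above background. *Mycl*, the remaining MYC gene, was not called in any comparison, although with arrays centred on their medians it passed against the mdDA domain, where 3 relatives were then higher and 3 lower (3 higher and 2 lower against the lateral domain).

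**Figure D5:**
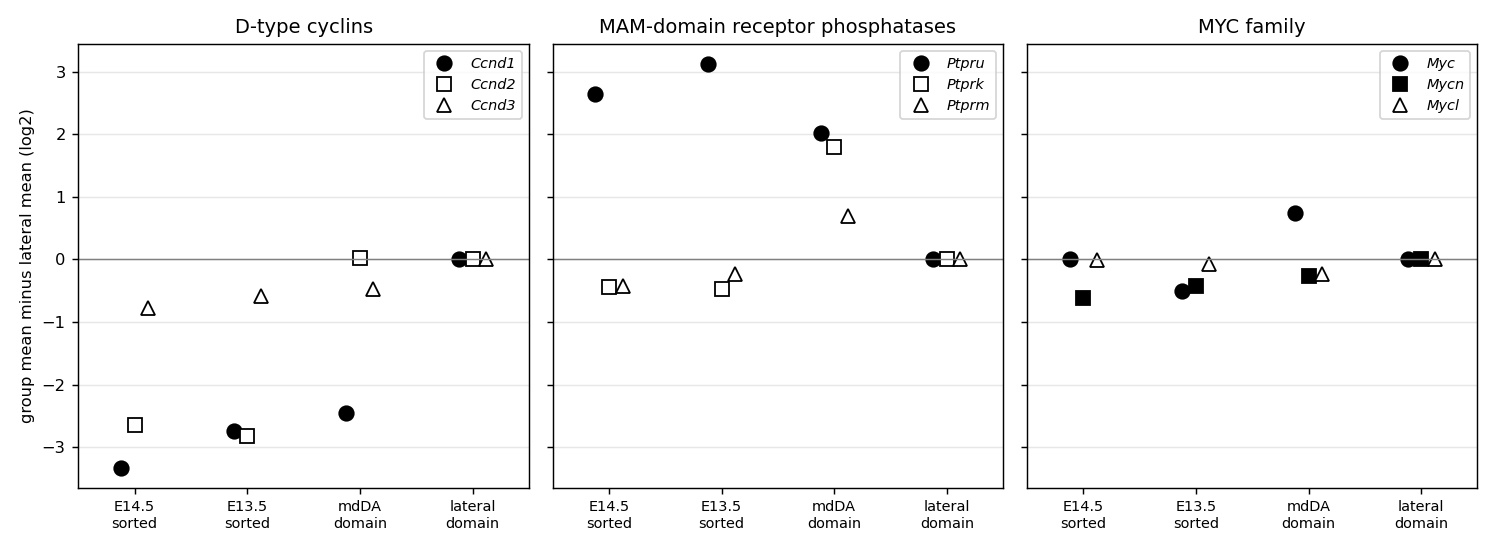
Group mean minus the lateral domain's mean of the same gene (vertical axis, log2, 2 arrays per group) for D-type cyclins (left), MAM-domain receptor phosphatases (middle) and the MYC family (right), with the genes described here filled. *Ccnd2* is at 0.02 in the mdDA domain, where *Ccnd1* is at -2.45, and *Ptprk* is at 1.798 in the mdDA domain and at -0.44 and -0.47 in E14.5 and E13.5 neurons, where *Ptpru* is at 2.64 and 3.12.

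Of 17 measured further targets of WNT/b-catenin signaling, the mdDA domain had 1 called higher and 2 called lower against the lateral domain. Their median difference was 0.13. Of all probe sets 2.62% were called there, 18.4% in sorted neurons against the mdDA domain and 25.9% against the lateral domain. *Apcdd1*, a membrane inhibitor of WNT, was higher (1.19 ± 0.15, SE, adjusted p = 0.072 from limma). *Lef1*, itself a LEF1/TCF factor and a target, was lower (-2.33 ± 0.15, adjusted p = 0.0326), as was *Id2*, an inhibitor of bHLH factors (-1.43 ± 0.15, adjusted p = 0.0568). Against the mdDA domain, sorted neurons had none of the 17 higher and 2 lower, *Lef1* (-0.70, adjusted p = 0.0274) and *Apcdd1* (-0.71, adjusted p = 0.0129). Against the lateral domain 2 were higher and 4 lower. The rises were *Tnfrsf19* (0.81) and *Apcdd1* (0.48), and the largest falls were *Lef1* (-3.03) and *Jag1* (-1.77). *Jag1* had means of 3.49 in E14.5 and 4.00 in E13.5 neurons, below the median of every array. The size of its fall thus depends on a level that may not be above background.

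Of the destruction complex and Dishevelled genes, with b-catenin itself and its inhibitor, none of 17 was called between the mdDA domain and the lateral domain. Their median there was 0.03. Of all probe sets 2.62% were called there, 18.4% in sorted neurons against the mdDA domain and 25.9% against the lateral domain. In the sorted cells *Ctnnbip1*, whose product keeps b-catenin from binding LEF1/TCF factors, was higher by 0.99 ± 0.20 than in the mdDA domain (SE, adjusted p = 0.0275 from limma) and by 1.26 ± 0.20 than in the lateral domain (adjusted p = 0.00748). *Gsk3a*, a kinase gene of the complex, was lower than in the mdDA domain (-0.44, adjusted p = 0.0503). Against the lateral domain 3 were higher and 4 lower, among them *Tnks* (0.70), which encodes a tankyrase that marks AXIN for degradation, its paralog *Tnks2* (-0.58) and *Ctnnb1*, the b-catenin gene (-0.48). These small differences depended on scaling. With arrays centred on their medians, 5 were higher and 0 lower against the mdDA domain and 6 higher and 1 lower against the lateral domain. The call of *Gsk3a* was then lost against both domains, and those of *Dvl3* and *Ctnnb1* against the lateral domain. With quantile normalization repeated, 1 was higher and 4 lower against the mdDA domain and 2 higher and 5 lower against the lateral domain. *Ctnnbip1* was called under each of these scalings.

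Partners of cyclins, CDK14 and the MYC proteins made no call between the mdDA domain and the lateral domain (18 measured). In sorted neurons 1 was higher and 3 were lower against the mdDA domain, where 18.4% of all probe sets were called. Against the lateral domain, with 25.9% called, 1 was higher and 6 were lower. With arrays centred on their medians the counts were 3 higher and 1 lower and, against the lateral domain, 3 higher and 2 lower, so that the balance of directions depended on scaling. *Max*, the partner of MYC and MYCN, was the one that was higher, by 0.50 (adjusted p = 0.0536 from limma) and 0.75 (adjusted p = 0.00994), and the first of these calls was lost when quantile normalization was repeated. The inhibitor gene *Cdkn2c* (-0.61, adjusted p = 0.0929) and the MAX-binding repressor gene *Mxd3* (-0.55, adjusted p = 0.0585) were lower against the mdDA domain, calls that were lost under both other scalings. The group means of *Cdkn2c*, 2.86 to 3.78, lay below the median of every array, so that its level may not be above background. *Lrp5*, a WNT co-receptor gene, was lower against both (-0.74, adjusted p = 0.0398, and -1.03, adjusted p = 0.00864). Its relative *Lrp6*, whose product CDK14 phosphorylates, was called lower against the lateral domain (-0.50, adjusted p = 0.0684), and this was lost with arrays centred on their medians. The CDK inhibitor gene *Cdkn1c* was lower against the lateral domain (-0.97, adjusted p = 0.006).

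For the 6 genes that spanned at least 1 on the log2 scale, the most similar profiles among 4855 genes with such a span were sought over the 8 arrays by Pearson's r, as a description with no test. *Ccnd1* was nearest to *Fgfr2* (r = 0.995), *Cntn2* (0.991) and *Vav3* (0.988). *Ptpru* was nearest to *Ntn1* (0.997), *Slc18a2* (0.996), which encodes the vesicular monoamine transporter and is 1 of the mdDA neuron markers above, and *Dclk1* (0.995). *Cdk14* was nearest to *Csmd3* (0.990), *Ttc6* (0.990) and *Pclo* (0.989), and *Dact1* to *Ndufs5* (0.993), *Rnasek* (0.992) and *Kifap3* (0.991). *Myc* was nearest to *Rhoq* (0.969), *Vtn* (0.955) and *Mir680-1* (0.952), and *Nkd1* to *Mir299a* (0.961), *Fxyd5* (0.943) and *Swsap1* (0.931). *Nkd1* reached the span through 1 array, E13.5 replicate 1 at 6.03, so that its likeness rests largely on that array. The group means of *Mir299a*, 3.08 to 3.64, lay below the median of every array.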

How the data were processed

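Total RNA of 4 groups was hybridized to Mouse Gene 1.0 ST arrays, 2 arrays per group. The deposited values are log2 levels of probe sets, for which the authors ran RMA with sketch-quantile normalization in Affymetrix Expression Console 1.2, and were used unchanged. The genome build is not given in the sources used here. How the sorted cells' RNA was prepared is not given there either. The number of arrays limits the precision. Of 35556 probe sets 21789 had 1 symbol, 1621 several and 12146 none, and 21698 were matched to RefSeq through Entrez identifiers. Each of the 10 genes had 1 probe set.

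Differences were tested with limma 3.58.1 in R 4.3.3 (lmFit and eBayes, Benjamini-Hochberg over all probe sets, threshold 0.1), with the replicate number as a block for the 2 dissected domains, after the study's methods, and with equal weight of E14.5 and E13.5 in the sorted mean. Fits were tested on simulated data. Tables and plots were made in Python 3.11.15 (numpy 2.4.6, pandas 2.3.3; matplotlib 3.10.9 for plots). The 10 genes and all gene lists were chosen with earlier results of these data known, so that no list is independent support. All 10 genes are named, and from each list every called gene up to 5 per comparison and otherwise the 2 largest rises and falls, with marker lists as counts and a few others named after their values were seen. The alternatives were other scalings, priors, thresholds, filters, sample sets, the block and leaving out each array.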

Additional observations from a re-analysis of the deposited data

How the results depend on the processing

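No called difference of the 10 genes changed sign under any alternative run. Between the mdDA domain and the lateral domain 931 probe sets were called. This became 1646 with trend and robust priors, 227 at an adjusted p below 0.05, 2502 among probe sets with 1 symbol, and 468 to 527 when 1 array was left out (the other 7 arrays fitted together, the lone array being assumed to vary like the rest). Of the 10 genes 3 were called, and 5 among probe sets with 1 symbol, and the same 3 were called without each array. Replicate numbers did not pair the arrays (correlation of deviations -0.02), and without the replicate block the count was 1434, with 4 of the 10 genes. A replicate block gave 5625 in place of 6532 calls for sorted neurons against the mdDA domain, 8473 in place of 9198 against the lateral domain and 0 between stages, and changed none of the 10 genes' calls. Against the mdDA domain 3935 were called at an adjusted p below 0.05, and leaving out 1 array gave 2037 to 6505, lowest without mdDA domain replicate 1 and 2792 without replicate 2. Against the lateral domain leaving out 1 array gave 4695 to 9162, with 4741 without lateral domain replicate 1 and 4695 without replicate 2. Centring arrays on their medians gave 5580 higher and 1782 lower against the mdDA domain, in place of 3032 and 3500, and 6705 higher and 2732 lower against the lateral domain, in place of 4057 and 5141. Between stages the count was 0, and 20 with all 8 arrays in the fit. The causes were not tested, beyond the fewer arrays or probe sets in some of these fits. Another choice among several probe sets of a gene was not run, because each of the 10 genes has 1. With 1 residual degree of freedom for the dissected domains, 2 for the stages and 4 for the sorted comparisons, the spread rests on few arrays.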
